A study of Mus musculus with 45 samples.

Results

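Sorted Pax7-positive myoblasts were compared with bulk primary myoblasts, using 3 RNA-seq libraries of each. These are 6 of the 45 libraries of the series and were identified by their titles. Both groups came from skeletal muscle of mice of the genotype Tg:Pax7-nGFP/C57BL6;DBA2, which places a nuclear green fluorescent protein under the control of Pax7. The bulk group was untreated culture, harvested with trypsin. The sorted group was purified by fluorescence and collected straight into lysis buffer, so handling and selection changed together and cannot be told apart. The labels give no age, animal or passage for either group, and the replicate numbers do not link a sorted library to a bulk one. The other libraries follow mouse embryonic fibroblasts (MEFs) of the same genotype after doxycycline (Dox) induction of MyoD, with or without the small molecules labelled F/R/C, and induced myogenic progenitor cells (iMPCs). Of these, untreated MEFs, cells after 2 and 10 days of Dox alone, and bulk and sorted iMPCs are used below. Those of day 10 are labelled myotubes. Bulk iMPCs were kept in medium containing F/R/C after 13 days of Dox with F/R/C. Where nothing states that replicates came from separate animals or cultures, p-values measure only the spread between these libraries.

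Pax7 is a transcription factor of satellite cells, the stem cells of skeletal muscle. Cultured satellite cells become proliferating myoblasts that express Pax7, Myf5 and Myod1, and when they leave the cell cycle they switch on Myog and then the genes of the contractile apparatus, fuse and form myotubes. A bulk culture can therefore hold dividing myoblasts beside differentiating cells, and a Pax7 reporter selects for the former. In bulk RNA, fewer cells of a type and less RNA per cell cannot be told apart.

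The promoters of 5 genes described below are shown: the muscle genes Casq1 and Ckmt2, which were far below bulk 1 and 2 in sorted cells, the muscle gene Acta1, whose groups overlapped, and the interferon-response genes Ifit1 and Ifit3, which were higher at low levels. Each stretch is the 250 bases before a RefSeq gene start (GRCm38.p6), written 5′ to 3′ on the strand of the gene. Capitals mark CAGCTG, an E-box of the kind bound by MyoD and myogenin and identical on both strands, in Casq1, Ckmt2 and Acta1. They mark GAAANNGAAA, the core of the interferon-stimulated response element, searched on both strands and here read from the opposite strand, in Ifit1 and Ifit3. The CAGCTG that Ifit3 also holds is left in lower case.
Casq1, chr1:172219896-172220145 (- strand): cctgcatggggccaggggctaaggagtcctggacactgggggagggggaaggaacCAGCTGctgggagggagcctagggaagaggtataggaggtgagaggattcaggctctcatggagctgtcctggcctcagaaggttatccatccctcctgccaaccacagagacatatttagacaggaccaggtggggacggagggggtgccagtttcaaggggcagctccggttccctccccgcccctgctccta
Ckmt2, chr13:91876886-91877135 (- strand): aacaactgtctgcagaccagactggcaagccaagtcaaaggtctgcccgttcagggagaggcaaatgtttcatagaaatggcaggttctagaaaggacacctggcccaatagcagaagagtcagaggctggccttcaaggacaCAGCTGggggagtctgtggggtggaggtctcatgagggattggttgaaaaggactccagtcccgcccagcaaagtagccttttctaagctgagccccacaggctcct
Acta1, chr8:123894776-123895025 (- strand): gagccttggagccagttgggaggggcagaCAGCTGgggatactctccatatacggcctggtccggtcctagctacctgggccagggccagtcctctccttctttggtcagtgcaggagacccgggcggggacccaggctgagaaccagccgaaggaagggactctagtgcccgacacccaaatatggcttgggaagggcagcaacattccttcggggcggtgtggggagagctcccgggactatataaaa
Ifit1, chr19:34640639-34640888 (+ strand): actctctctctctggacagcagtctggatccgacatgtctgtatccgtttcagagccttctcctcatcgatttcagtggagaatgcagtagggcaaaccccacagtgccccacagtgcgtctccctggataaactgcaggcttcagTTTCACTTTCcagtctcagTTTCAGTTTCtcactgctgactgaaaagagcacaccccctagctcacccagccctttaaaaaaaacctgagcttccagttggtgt
Ifit3, chr19:34583279-34583528 (+ strand): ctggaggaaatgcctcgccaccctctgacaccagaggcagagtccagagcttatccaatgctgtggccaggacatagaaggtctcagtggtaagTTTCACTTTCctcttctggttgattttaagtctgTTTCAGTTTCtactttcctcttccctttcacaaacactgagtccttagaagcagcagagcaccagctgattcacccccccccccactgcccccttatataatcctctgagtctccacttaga
CAGCTG was present before the start of 36 of the 84 muscle-list genes with a window (42.9%), beside 14.8% of the 10800 tested genes with one. GAAANNGAAA was present in 8 of 16 interferon-list genes (50%) and in none of those 84, beside 3.03% of the tested genes. A match describes the letters and does not show that a factor binds there.

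The 6 libraries held from 17.5 M to 35.5 M reads, and from 99.6% to 99.8% of them were assigned to annotated genes. Values are CPM, the reads of a gene over all assigned reads of its library, brought to a common total with edgeR's TMM factors. The targeted gene gave a weak check of the sort. Pax7 was at 481, 451 and 716 CPM in bulk replicates 1, 2 and 3 and at 903, 755 and 396.5 CPM in sorted replicates 1, 2 and 3. The groups overlapped, because the third sorted library was below every bulk one (log2 fold change 0.32, SE 0.38, edgeR adjusted p = 0.802). Myf5, an early determination factor, was higher in each sorted library (118, 152 and 107 CPM) than in each bulk one (95.7, 87.8 and 85.4 CPM), a difference of 0.49 ± 0.21 (SE) on the log2 scale that did not pass the test (adjusted p = 0.513). Xist, expressed from the inactive X, was at 456 and 749 CPM in bulk 1 and 3 and at 1063 CPM in sorted 3, and under 1 CPM in the other 3 libraries. Those 3 libraries instead expressed the Y-linked gene Ddx3y, at 103 CPM in bulk 2 and at 48.5 and 97.0 CPM in sorted 1 and 2. Each group thus held libraries of both sexes, which were not balanced between the groups.

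No gene passed the test between sorted and bulk myoblasts. Of 14528 genes tested on the 6 libraries with edgeR, 0 were called (0.0%), where a call needs a Benjamini-Hochberg adjusted p under 0.05 and a log2 fold change of at least 1 in size. At an unadjusted p under 0.05 there were 1423 genes, and the smallest adjusted p was 0.179. With DESeq2 on the same libraries 318 genes were called (2.19% of those tested), 115 higher (0.792%) and 203 lower (1.4%) in sorted cells. When edgeR shared 1 estimate of the spread over all 45 libraries, 1080 of 17325 genes were called (6.23%), 382 higher (2.2%) and 698 lower (4.03%). Of the 874 of these that were also tested on the 6 libraries, 359 had overlapping groups. The bulk myoblast libraries differed widely, so a spread shared over all libraries can be too small for this comparison. Calls and adjusted p-values of that fit are therefore given as descriptions. Without bulk replicate 3, edgeR called 45 genes (0.297%), all lower in sorted cells. The 3 sorted values lay wholly above the 3 bulk values for 1170 genes (8.05%) and wholly below for 1083 (7.45%). Below, a gene is described as higher or lower by its values, and each call is named with the fit that made it.

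Genes of the differentiated muscle fibre were lower on average in sorted cells, but the bulk libraries themselves differed more than the groups did. The sarcomere list sums the genes of the contractile apparatus. Its 51 members together reached 71746 and 47784 CPM in bulk 1 and 2 but 3825 CPM in bulk 3, an 18.8-fold range. The sorted libraries lay between these extremes, at 9596, 13530 and 34257 CPM. The group means were 41118 ± 34448 (SD, n = 3) in bulk and 19127 ± 13250 (SD, n = 3) in sorted cells, a 2.15-fold difference that is smaller than the spread in bulk. Of the 50 members tested, 49 had a negative fold change, with a median of -1.11 beside -0.01 for all genes tested. None was called on the 6 libraries, and 1 lay wholly below and 1 wholly above bulk, against 7.45% and 8.05% of all genes. The fit over 45 libraries called 11 members lower and none higher, where 4.03% of all genes were called lower. DESeq2 called 3 lower (1.4% of all genes). The fit without bulk 3 also called 3 lower (Myot, Myoz2 and Tcap), beside 0.297% of all genes. Single libraries moved the median by over 1.5 times: it was -0.50 without bulk 1, and -2.09 without sorted 3, the sorted library with the most sarcomere RNA.

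The genes of excitation-contraction coupling, which release and recover calcium, followed the same order of libraries. Their sum was 12158, 10392 and 1621 CPM in bulk and 2932, 3932 and 7724 CPM in sorted cells, and 21 of 25 tested had a negative fold change (median -0.63). The muscle metabolism list, which includes creatine kinases and muscle isoforms of glycolysis, summed to 4669, 3337 and 1003 CPM in bulk and to 1232, 1134 and 2223 CPM in sorted cells, with 17 of 20 negative (median -1.13). Single libraries moved these medians too. For excitation-contraction coupling the median was -0.33 without bulk 2, -0.30 without sorted 1, -1.19 without bulk 3 and -1.36 without sorted 3, and for metabolism it was -0.33 without bulk 1. The fit over 45 libraries called 5 and 6 members of these lists lower, where it called 4.03% of all genes lower. Genes of the neuromuscular junction differed less (median -0.51, 7 of 10 negative, 2 called lower over 45 libraries). Myoblast fusion genes hardly differed in the median (-0.16, 9 of 17 negative, 1 called lower over 45 libraries). None of these members was called on the 6 libraries. Over all 5 lists, bulk 3 was below both other bulk libraries for 112 of 122 genes tested. For 70 genes all sorted values were below bulk 1 and 2, and for 54 of those they were also above bulk 3. Only 3 of the 122 lay wholly below bulk (Tcap, Eno3 and Chrnb1) and 4 wholly above, beside 7.45% and 8.05% of all genes.

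**Figure D1:**
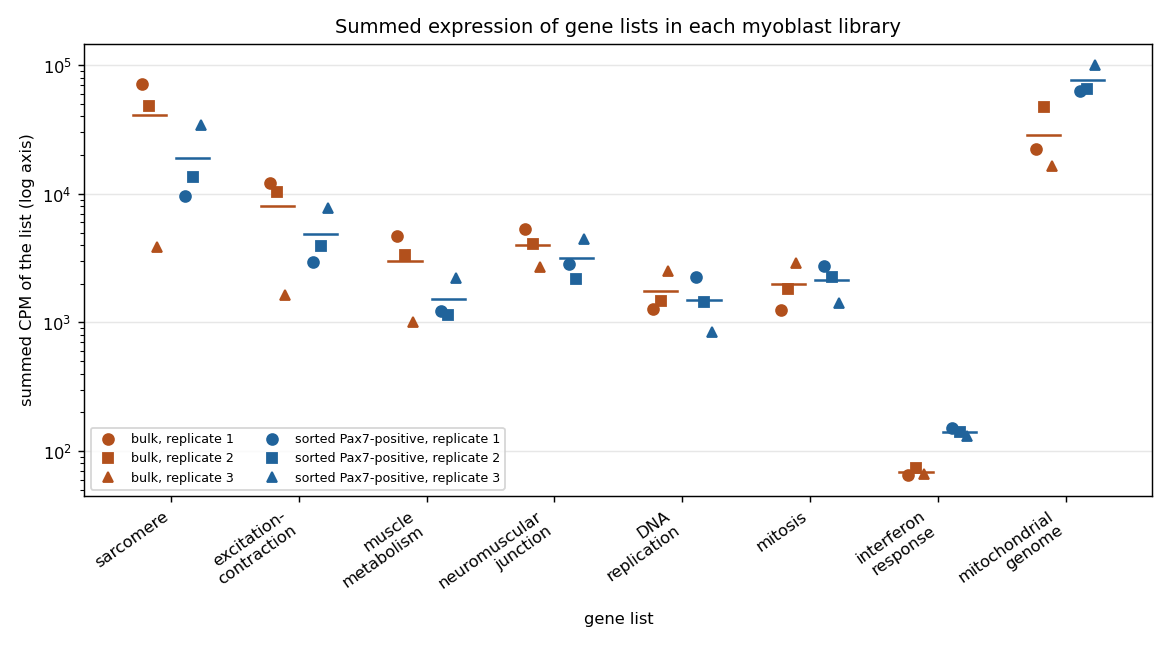
Summed CPM (log axis) of 8 gene lists in each of the 6 myoblast libraries; points are libraries, with the replicate number given by the marker shape, and horizontal lines are group means. Bulk replicate 3 is the lowest library for the sarcomere list, at 3825 CPM, and the highest for mitosis, while the interferon and mitochondrial lists are higher in every sorted library than in every bulk one.

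The muscle genes did not behave as a block. The 4 sarcomere genes of highest mean level show both patterns. Myh3, the embryonic myosin heavy chain, was at 15182, 7673 and 422 CPM in bulk and at 1676, 1484 and 1897 CPM in sorted cells. Myh1, an adult fast myosin, was at 5598, 4844 and 80.0 CPM in bulk and at 214, 633 and 214 CPM in sorted cells (log2 fold change -3.31, SE 1.29). It was called lower over 45 libraries (edgeR adjusted p = 0.017) and not on the 6 (adjusted p = 0.485). Acta1, skeletal actin, was at 8860, 2712 and 260.5 CPM in bulk and at 1023, 1541 and 6051 CPM in sorted cells, so that the third sorted library exceeded bulk 2. Des, the muscle intermediate filament, was at 4451, 1906 and 978 CPM in bulk and at 799, 1158 and 1559 CPM in sorted cells. In all 4 genes bulk 1 was the highest library, and only in Des was bulk 3 not the lowest of the 6.

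Myog and Myod1 did not separate the groups. The list of myogenic regulators that holds them was mixed: of 22 tested, 10 were negative (median 0.16). Wholly above bulk lay 1 and wholly below 2, beside 8.05% and 7.45% of all genes. The fit over 45 libraries called Id1, Id3 and Myf6 lower and Eya2 higher, beside 4.03% and 2.2% of all genes. DESeq2 called 1, Id1. Mef2c, a partner of MyoD, was at 723, 1124 and 24.7 CPM in bulk and at 76.5, 71.6 and 336 CPM in sorted cells (log2 fold change -1.95, SE 1.19) and was not called. Myog, which commits myoblasts to differentiate, was at 999, 696 and 67.0 CPM in bulk and at 464, 999 and 1448 CPM in sorted cells. Its log2 fold change was 0.72 with an SE of 0.87 (edgeR adjusted p = 0.803). Myod1 was at 1012, 354 and 917 CPM in bulk and at 516, 459 and 923 CPM in sorted cells. Ttn, the giant sarcomere spring, was at 1590, 1588 and 148 CPM in bulk and at 541, 610 and 2153 CPM in sorted cells. Its log2 fold change was -0.01 with an SE of 0.90. The intervals are wide, so these values do not show that the groups are alike.

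Other muscle genes were far below bulk 1 and 2 in all 3 sorted libraries, including the one richest in Myog, and close to bulk 3. These examples were chosen after their values were seen. Casq1, the calcium buffer of the sarcoplasmic reticulum whose promoter is printed above, was at 765, 643 and 10.0 CPM in bulk and at 10.1, 5.93 and 8.57 CPM in sorted cells (log2 fold change -5.85, SE 1.38). Tcap, a Z-disc cap of titin, was at 75.6, 68.1 and 3.10 CPM in bulk and at 1.29, 1.502 and 0.925 CPM in sorted cells (-5.29, SE 1.11). Its sorted values were all below bulk. Ampd1, the muscle AMP deaminase, was at 35.8, 34.5 and 0.734 CPM in bulk and at 0.823, 0.830 and 0.432 CPM in sorted cells. Myh4, the fastest adult myosin, was at 159, 434 and 5.67 CPM in bulk and at 9.99, 3.71 and 0.864 CPM in sorted cells. Myot and Ckmt2, a Z-disc protein and the mitochondrial creatine kinase of muscle, were under 4 CPM in sorted cells, at 1.02, 3.95 and 2.10 CPM and at 0.509, 1.58 and 1.54 CPM. In bulk Myot was at 86.2, 109 and 0.856 CPM and Ckmt2 at 22.2, 28.5 and 0.163 CPM. All 6 genes were called lower by the fit over 45 libraries and by DESeq2, and none on the 6 libraries with edgeR, where the adjusted p of Casq1 and Tcap was 0.431. Without bulk 3 the adjusted p of both was 0.0023.

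**Figure D2:**
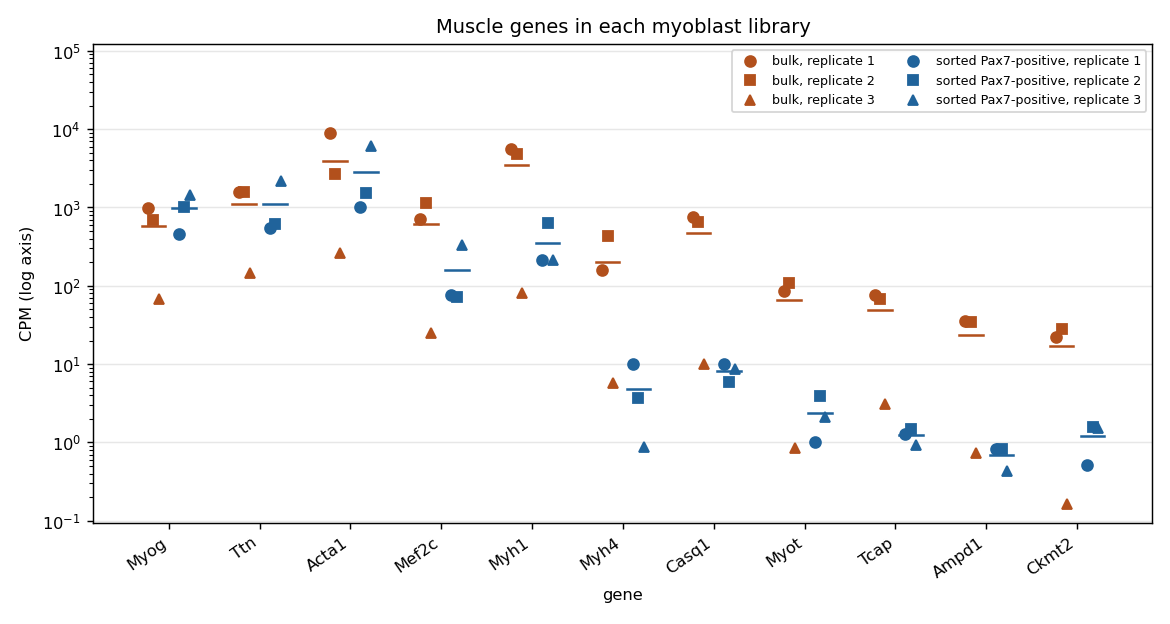
CPM (log axis) of 11 muscle genes in each of the 6 libraries; points are libraries, marker shape gives the replicate and horizontal lines are group means. For Myog, Ttn and Acta1 on the left, sorted replicate 3 lies above bulk 2. From Casq1 to Ckmt2 on the right, all sorted libraries lie far below bulk 1 and 2 and close to bulk 3. Tcap is the gene here whose sorted values are all below bulk.

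The series offers an order of muscle genes from other libraries, since fibroblasts with MyoD alone were sampled on day 2 and day 10. Of the muscle-list genes, 27 were called higher on day 10 than on day 2, and their median log2 fold change between sorted and bulk myoblasts was -2.37 (quartiles -4.28 and -1.02), with 25 of 27 negative. For the 90 genes not called between those days the median was -0.55 (quartiles -1.27 and -0.16), with 75 negative. For the 4 called lower on day 10 it was -0.50. The fit over 45 libraries called 14 of the 27 and 10 of the 90 lower, beside 4.03% of all genes. Without bulk 3 the medians were -2.93 and -1.01. The counts of 27, 90 and 4 only give the sizes of the classes. The share of all genes called between those days is not given, so they do not set muscle genes apart. The difference between these classes is a description, since the split was made after the values were seen.

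How far the whole difference consists of muscle genes depended on how genes were selected. A reference set was taken from libraries outside the comparison: 1634 of 14541 genes were called higher on day 10 of MyoD alone than in MEFs (11.2%), and 2.65% were called lower. Among the genes tested in both comparisons, 1400 of 13548 (10.3%) belonged to that set. Their median difference between sorted and bulk myoblasts was -0.38, and 68.9% of them were negative, beside 50.9% of all genes. Of the genes called lower by the fit over 45 libraries, 243 of 581 tested in both (41.8%) belonged to the set, which is 14.9% of the set. Of those called higher, 33 of 312 did (10.6%), close to the 11.2% of all genes in that fit. Of the genes called lower by DESeq2 70 of 189 did (37.0%), and of those it called higher 16 of 103 (15.5%). Of those called without bulk 3 it was 39 of 43 (90.7%), which is 2.39% of the set. That fit leaves out the library that was lowest of bulk for 112 of 122 muscle-list genes. By contrast, among genes whose 3 sorted values were all below all 3 bulk values, only 102 of 1039 belonged to the set (9.82%), no more than among all genes. Of those all above, 46 of 1032 did (4.46%). Genes of the set thus made up a large share of the calls lower in sorted cells. Among the genes that separate all 6 libraries their share did not exceed the background.

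The bulk replicates did not form a uniform group. Bulk 1 and 2 correlated at r = 0.950 in log2 CPM across genes, and bulk 3 with them at 0.906 and 0.892. Bulk 3 correlated better with sorted replicate 1 (0.930). These correlations are descriptions over genes of libraries of one study. The coefficient of biological variation was 0.495 in bulk and 0.424 in sorted cells. Of 7800 genes of at least 20 CPM in bulk, 558 ranged over more than 4-fold among the bulk libraries and 311 among the sorted ones. Among the 100 genes with the widest range in bulk, bulk 3 was the lowest library for 90 and the highest for 3. Over all 7800 it was the lowest or the highest for 6024. Of these 100, 79 were called higher on day 10 of MyoD alone than in MEFs, beside 10.3% of all genes tested in both comparisons. Muscle-list members made up 34 of them, beside 0.84% of all genes tested. The shares among the 7800 were not computed.

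Of the 10 genes with the widest range in bulk, 3 were Xist, Ddx3y and Eif2s3y, which differ between the sexes. Of the other 7, bulk 3 was lowest for 6. Mybpc1, the slow myosin-binding protein C, was at 686 and 811 CPM in bulk 1 and 2 and at 5.83 CPM in bulk 3, with 28.1, 11.97 and 201 CPM in sorted cells. Fbxo40, a muscle ubiquitin-ligase adaptor, was at 74.9, 21.5 and 0.408 CPM in bulk and at 0.509, 0.988 and 2.10 CPM in sorted cells. Sypl2, a triad-junction protein, was at 74.9, 60.3 and 0.449 CPM in bulk and at 1.45, 1.502 and 3.39 CPM in sorted cells. Gbp6, an interferon-inducible GTPase, was at 235, 178 and 1.55 CPM in bulk and at 100.1, 30.3 and 198 CPM in sorted cells. Tceal5 and Armh4 were also lowest in bulk 3, at 0.571 and 0.122 CPM. The exception was Fam177a, which was at 47.4 and 29.8 CPM in bulk 1 and 3 and had no read in bulk 2.

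Genes of the cell cycle ran against the muscle genes. The mitosis list summed to 1245, 1808 and 2872 CPM in bulk and to 2741, 2261 and 1425 CPM in sorted cells, and bulk 3 was the highest bulk library for 29 of its 30 members. The DNA replication list summed to 1273, 1469 and 2510 CPM in bulk and to 2241, 1429 and 841 CPM in sorted cells, again with bulk 3 highest for 29 of 30. In both lists the order of the libraries was nearly the reverse of that of the sarcomere list. Mki67, the marker of dividing cells, was at 79.9, 156 and 182 CPM in bulk and at 214, 176 and 138 CPM in sorted cells. No member was called by any of the 3 fits. The median fold changes were 0.15 and -0.21 with all 6 libraries, and 0.57 and 0.24 without bulk 3, so that the sign for DNA replication rested on that library. The insulin-like growth factor list tracked the muscle genes within groups: Igf2, a growth factor made by differentiating myoblasts, was at 4900, 2826 and 324 CPM in bulk and at 1477, 4868.5 and 8536 CPM in sorted cells. H19, its imprinted neighbour, was at 16403, 12902 and 2468 CPM in bulk and at 6811, 16073 and 23943 CPM in sorted cells.

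Some genes separated the groups in all 6 libraries and were called by more than 1 fit. A gene was taken as the firmest kind of difference where the fit over 45 libraries and DESeq2 both called it, the groups did not overlap, the higher group averaged at least 5 CPM and no reads were divided between genes. These rules were set after the fit on 6 libraries had called none. They left 84 genes, 35 higher and 49 lower in sorted cells, and 1 of them, Tcap, was a muscle-list gene, where such genes are 0.84% of all tested. With genes whose reads were partly divided included there were 186, 74 higher and 112 lower. Of the genes described next, Fgfr4, Lmnb2, Tfrc, Tnc, Ldha, Meg3 and Rian are of that wider kind, so their counts are estimates.

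Fgfr4 and some Notch pathway genes were higher. Fgfr4, the fibroblast growth factor receptor typical of myoblasts, was at 19.4, 31.0 and 20.96 CPM in bulk and at 97.4, 146 and 251 CPM in sorted cells (log2 fold change 2.79, SE 0.40; edgeR adjusted p = 0.389 on 6 libraries and 0.0017 over 45). The groups lay far apart. Of 15 Notch pathway genes tested, 8 had a positive and 7 a negative fold change. Wholly above bulk lay 6 (8.05% of all genes did) and none wholly below. The fit over 45 libraries called 4 higher (2.2% of all genes) and DESeq2 2 (0.792%). Dll1, a Notch ligand, was at 23.8, 38.3 and 18.1 CPM in bulk and at 82.4, 59.3 and 75.8 CPM in sorted cells. Notch1, a receptor, was at 176, 79.7 and 157 CPM in bulk and at 276, 259 and 186 CPM in sorted cells and was not called. The targets Hey1 and Heyl, which hold satellite cells undifferentiated, were higher over a wide range. Hey1 was at 2.07, 1.97 and 0.856 CPM in bulk and at 3.76, 37.4 and 16.4 CPM in sorted cells. Heyl was at 3.08, 15.9 and 1.83 CPM in bulk and at 29.7, 29.5 and 46.1 CPM in sorted cells. Dtx4 was at 7.92, 61.2 and 15.2 CPM in bulk and at 166, 137 and 89.4 CPM in sorted cells. Hes6, a Notch-family gene of differentiating myoblasts, went the other way, at 567, 298 and 153 CPM in bulk and at 144, 95.6 and 203 CPM in sorted cells, with overlapping groups. The list's median was 0.22 (0.017 without sorted 2, 0.10 without bulk 2 and 0.51 without bulk 3), and its members of highest level, Hes6 and Rbpj, were not called.

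The satellite-cell list showed no common shift. Of 24 members tested, 14 were higher and 10 lower by fold change (median 0.50). Wholly above bulk lay 4 and wholly below 2, beside 8.05% and 7.45% of all genes. The fit over 45 libraries called 2 higher and 1 lower, beside 2.2% and 4.03% of all genes. Its abundant adhesion members did not separate the groups: Itgb1 was at 1363, 1012 and 652 CPM in bulk and at 580, 726 and 686 CPM in sorted cells. Dag1 was at 748, 720 and 199 CPM in bulk and at 544, 601 and 1298 CPM in sorted cells.

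Other genes higher in every sorted library had varied roles. Irs2, an insulin receptor substrate, was at 3.99, 9.27 and 7.75 CPM in bulk and at 26.3, 59.8 and 20.8 CPM in sorted cells. Ephx1, an epoxide hydrolase, was at 38.1, 44.4 and 42.2 CPM in bulk and at 136, 167 and 99.9 CPM in sorted cells (log2 fold change 1.69, SE 0.24). Unc93b1, which carries Toll-like receptors to endosomes, was at 18.97, 16.7 and 13.5 CPM in bulk and at 65.2, 90.4 and 48.0 CPM in sorted cells. Lmnb2, a nuclear lamin, was at 76.0, 68.7 and 97.0 CPM in bulk and at 193, 221 and 283 CPM in sorted cells. Ddit3, a stress-induced transcription factor whose symbol is shared by a second gene entry, was at 7.82, 9.30 and 7.46 CPM in bulk and at 12.4, 192 and 114 CPM in sorted cells, so that the first sorted library was close to bulk. The other 9 genes of the 12 with the largest increases by the rule above were D630003M21Rik, Pdzd7, Cxcl13, Avil, Vsir, Nup210, Car2, 2810468N07Rik and Ctrb1, with log2 fold changes from 2.34 to 4.17.

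Feedback genes of growth factor signalling were lower in sorted cells. Of 21 genes in the FGF and MAP kinase feedback list, 17 had a negative fold change (median -0.87; -0.54 without bulk 3 and -0.52 without sorted 3) and 6 lay wholly below bulk (7.45% of all genes did). The fit over 45 libraries called 6 lower (4.03% of all genes were) and DESeq2 4 (1.4%), and none higher. Hbegf, a ligand of the epidermal growth factor receptor, was at 56.9, 37.4 and 34.8 CPM in bulk and at 10.3, 7.71 and 5.18 CPM in sorted cells (log2 fold change -2.47, SE 0.35). Dusp5, a MAP kinase phosphatase, was at 63.8, 43.0 and 124 CPM in bulk and at 22.0, 7.31 and 9.38 CPM in sorted cells. Etv5, a transcription factor induced by FGF signals, was at 135, 160.2 and 112 CPM in bulk and at 75.7, 53.03 and 63.3 CPM in sorted cells. Egr1 and Spry2, more abundant members of the list, were not called, and their groups overlapped. Egr1 was at 136, 162 and 219 CPM in bulk and at 136, 106 and 41.2 CPM in sorted cells. The immediate-early and stress list had 18 of 25 negative (median -0.72) and 5 wholly below bulk (7.45% of all genes were). The fit over 45 libraries called 5 lower (4.03% of all genes). Among them Egr2 was at 1.51, 3.16 and 2.28 CPM in bulk and at 0.274, 0.158 and 0.802 CPM in sorted cells. Egr3 was at 7.42, 51.7 and 27.5 CPM in bulk and at 6.70, 7.11 and 1.85 CPM in sorted cells.

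Other genes lower in sorted cells had varied roles. Id1, which blocks MyoD, was at 92.7, 47.0 and 133 CPM in bulk and at 22.9, 14.0 and 32.0 CPM in sorted cells. Id3 was at 189, 87.5 and 336 CPM in bulk and at 98.9, 53.2 and 49.5 CPM in sorted cells, with overlapping groups. Tfrc, the transferrin receptor, was at 417, 472 and 251 CPM in bulk and at 106, 44.8 and 76.9 CPM in sorted cells (log2 fold change -2.33, SE 0.40; edgeR adjusted p = 0.402 on 6 libraries and 5.6e-06 over 45). Tnc, the matrix protein tenascin C, was at 2173, 572 and 2343 CPM in bulk and at 272, 348 and 85.4 CPM in sorted cells. Ldha, the lactate dehydrogenase of glycolysis, was at 1192, 840.2 and 806 CPM in bulk and at 383, 248 and 530 CPM in sorted cells. The imprinted noncoding RNAs Meg3 and Rian, neighbours in 1 cluster, were low in bulk and lower still in sorted cells. Meg3 was at 45.6, 47.9 and 31.9 CPM in bulk and at 4.23, 3.71 and 0.123 CPM in sorted cells. Rian was at 39.3, 23.8 and 19 CPM in bulk and at 1.33, 0.632 and 0 CPM in sorted cells. By the rule above, the genes with the largest decreases included Srrm4os, B3galt5, Atp13a5, Frem2, Tcap, Gja3, Gm20400, Fam167a, Tmem179 and Adcy1, with log2 fold changes from -7.48 to -3.38. For Frem2, a basement-membrane protein and the most abundant of these in bulk, the values were 133, 108 and 5.06 CPM in bulk and 2.23, 1.34 and 1.97 CPM in sorted cells.

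**Figure D3:**
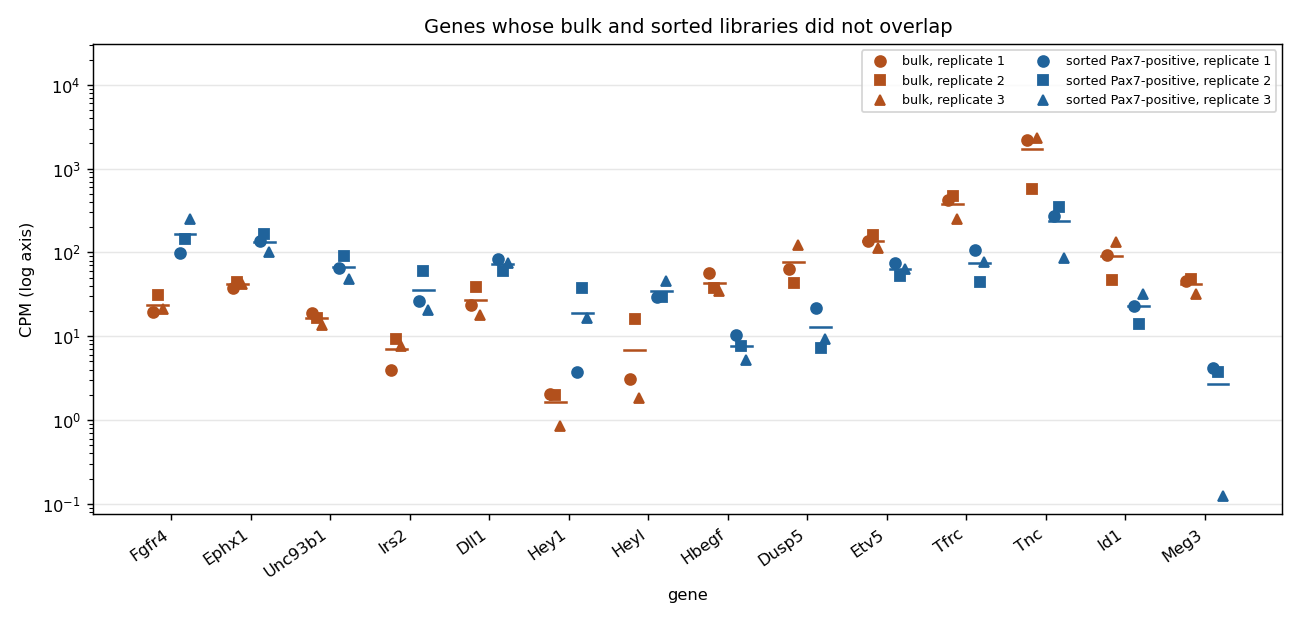
CPM (log axis) of 14 genes whose 3 bulk and 3 sorted libraries did not overlap; points are libraries, marker shape gives the replicate and horizontal lines are group means. Fgfr4 to Heyl are higher and Hbegf to Meg3 lower in sorted cells. Since the genes were picked for groups that do not overlap, bulk 3 lies on the side of the other bulk libraries by selection.

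Genes of the interferon response were higher in sorted cells at low absolute levels. Their 20-gene list summed to 64.6, 74.3 and 66.2 CPM in bulk and to 150.0, 141 and 131 CPM in sorted cells, or 68.4 ± 5.21 against 141 ± 9.43 CPM (SD, n = 3 each). All 17 tested members had a positive fold change (median 1.63), and 14 lay wholly above bulk, beside 8.05% of all genes. None was called on the 6 libraries, while 5 were called higher over 45 libraries (2.2% of all genes were) and 5 by DESeq2 (0.792%). Stat2, a transducer of the interferon signal, was at 18.1, 14.3 and 9.66 CPM in bulk and at 23.1, 26.6 and 44.2 CPM in sorted cells. Ifih1, a sensor of double-stranded RNA, was at 0.706, 2.31 and 1.26 CPM in bulk and at 6.15, 6.99 and 4.87 CPM in sorted cells. Ifit1 and Ifit3, whose promoters are printed above, were at 0, 1.01 and 0.122 CPM and at 0.202, 0.451 and 0.0815 CPM in bulk. In sorted cells they were at 5.41, 2.02 and 5.31 CPM and at 2.194, 0.790 and 1.91 CPM. Several of these values correspond to few reads, since 3 reads equal 0.0847 to 0.185 CPM in these libraries.

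Transcripts of the mitochondrial genome were also higher. The 13 protein genes summed to 22242, 47355 and 16521 CPM in bulk and to 62839, 65295 and 101196 CPM in sorted cells. All 13 had a positive fold change (median 1.47), 9 lay wholly above bulk (8.05% of all genes did), and the fit over 45 libraries called 11 higher (2.2%) and DESeq2 3 (0.792%). mt-Co1, a subunit of cytochrome c oxidase, was at 6550.5, 14258 and 5293 CPM in bulk and at 17171, 25273 and 27851 CPM in sorted cells. This list was added after the values were seen, and its part in the other differences was not tested.

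Endothelial and haematopoietic markers were scarce in both groups, while fibroblast and smooth muscle markers were not. Of 11 endothelial markers 6 were under 1 CPM in all 6 libraries, and the list summed to between 4.81 and 11.2 CPM in bulk and between 15.9 and 18.7 CPM in sorted cells; Cdh5 did not exceed 0.274 CPM. Of 13 haematopoietic markers 8 were under 1 CPM throughout, with sums from 9.01 to 22.9 CPM in bulk and from 9.44 to 39.9 CPM in sorted cells, and Ptprc did not exceed 0.123 CPM. Fibroblast markers summed to between 419 and 675 CPM in bulk and between 306 and 736 CPM in sorted cells, mostly from Col3a1 and Prrx1, while Lum was at 0 in all 6. Smooth muscle and pericyte markers summed to 2284, 1283 and 948 CPM in bulk and to 1116, 1717 and 1829 CPM in sorted cells, with 5 of 8 tested negative. The member of highest mean level was Acta2, smooth muscle actin, at 1024, 887 and 71.6 CPM in bulk and at 828, 1353 and 1702 CPM in sorted cells. Rgs5, a pericyte marker on that list called lower over 45 libraries and by DESeq2, was at 838, 83.0 and 443 CPM in bulk and at 48.7, 74.4 and 36.1 CPM in sorted cells. Epithelial markers summed to 100.0, 20.3 and 13.0 CPM in bulk and to 12.9, 8.1 and 15.7 CPM in sorted cells. Adipocyte markers summed to 14.7, 18.1 and 10.4 CPM in bulk and to 12.1, 122 and 9.62 CPM in sorted cells. The part of other cells in the differences was not tested.

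Most muscle-list genes were called lower in sorted iMPCs. By the interaction term the effect was called higher in myoblasts for 14 of 122 of them, beside 5.49% of all genes. It was called lower for 1, beside 5.12%. In sorted against bulk iMPCs, 48 of 50 sarcomere genes were called lower by edgeR (median -4.37), where 16.1% of all genes were called lower, and 100 of 121 muscle-list genes were, among them 5 of 10 of the neuromuscular junction and 8 of 16 of fusion. Ttn was at 2194 ± 275 CPM in bulk and at 108.5 ± 45.1 CPM in sorted iMPCs (SD, n = 3 each), while in myoblasts the means were 1085 and 1080 CPM. The difference between the effects was 4.33 on the log2 scale (edgeR adjusted p = 0.037). Chrng, the fetal subunit of the acetylcholine receptor, differed likewise, by 3.85 (adjusted p = 0.015). In all, 4 of 50 sarcomere genes were called by this test, all with the more negative fold change in iMPCs (Ldb3, Mylk2, Neb and Ttn), where 1679 of 15825 genes were called (10.6%), the effect being higher in myoblasts for 5.49% and lower for 5.12%. That test depended on single libraries: without bulk iMPC replicate 1 only 4 genes were called (Cgref1, Erfe, Pla2r1 and Slc9a2). Pax7 itself was raised in sorted iMPCs, from 67.2 to 339 CPM, where myoblasts had 539 and 671 CPM, a difference between the effects of -2.02 (adjusted p = 0.031). Some changes were shared: Fgfr4, Hey1, Hbegf, Tcap, Meg3 and Rian were called in the same direction in iMPCs. Of the 84 genes above, 23 were: 3 of the 35 higher ones, where 11.2% of all genes were called higher in iMPCs, and 20 of the 49 lower ones, where 16.1% were called lower. The interferon list was not: its median in iMPCs was -1.10, with 3 of 17 called lower and none higher.

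**Figure D4:**
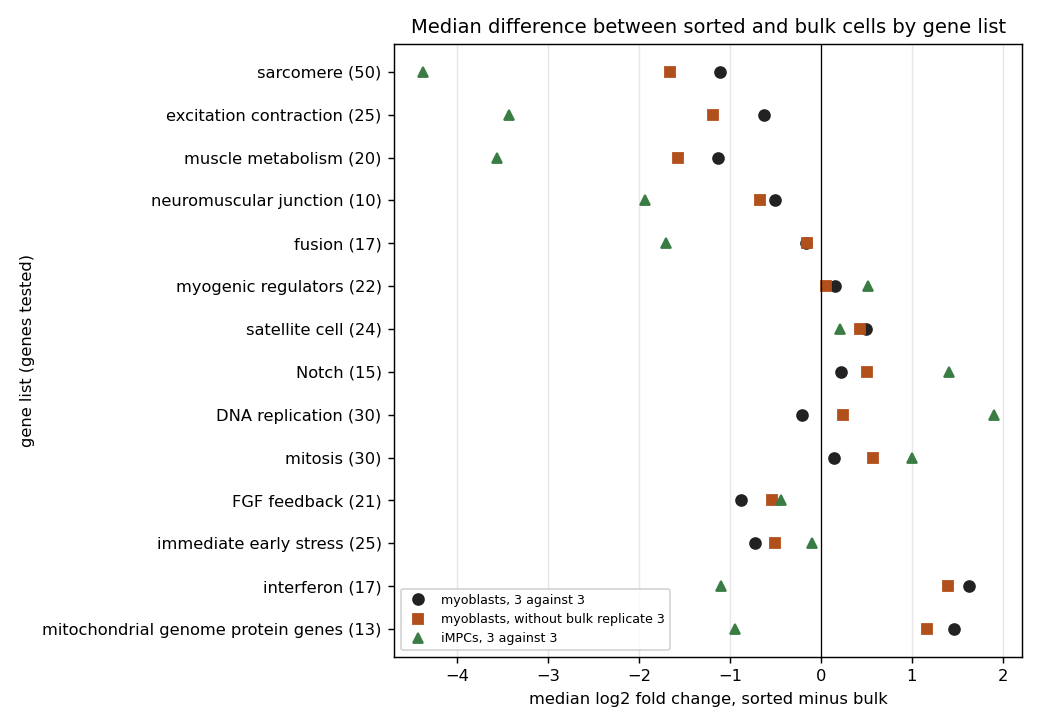
Median log2 fold change of sorted against bulk cells for 14 gene lists, with the number of genes tested in myoblasts; black circles are all 6 myoblast libraries, squares leave out bulk replicate 3, and triangles are iMPCs. The muscle lists lie at -0.16 to -1.13 in myoblasts, further from 0 without bulk 3 except for fusion (-0.16), and at -1.70 to -4.37 in iMPCs.

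A technical value moves with the groups. The 6 sorted libraries of both cell types shared a median difference between transcript length and effective length of 179 bases, against 152 in the 39 others, so the quantification setting and sorting cannot be told apart. Compared with those 39 libraries, 60 genes were higher and 19 lower in all 6 sorted ones. The 39 include the bulk myoblasts, so these 79 genes separate the myoblast groups by definition. Of the 2253 tested genes whose myoblast groups did not overlap, 69 were in this set. Gm20400, named above, and Fgf7, a member of the FGF feedback list, were among the 19 lower ones. Rps27rt, a retrotransposed ribosomal protein gene that shares sequence with its parent, was at 154, 77.8 and 220.4 CPM in bulk and at 0 in all sorted myoblast libraries, at least 1070.0-fold lower at the 3-read floor averaged over the libraries. Gm14288 was also at 0 in all sorted libraries, and Zfp935 in all bulk ones. Reads of these genes can be divided with near-identical copies, so the values are uncertain.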

How the data were processed

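Poly-A RNA was sequenced as stranded single-end libraries, per the labels' protocols. The submitters' processing notes name bcl2fastq 2.19, Trimmomatic 0.36, kallisto 0.44, edgeR 3.28 and the build GRCm38.p6, without their order. The deposited tables give, per the file headers, estimated counts and TPM for 121843 transcripts in each library; the authors' TPM values were not used. The authors' transcript release is not given in the sources used here, and 739 transcripts did not match the gene table (GENCODE M21). Estimated counts were summed to 35675 genes and rounded.

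Sorted and bulk myoblasts were compared with edgeR 4.0.16 in R 4.3.3 (quasi-likelihood test, TMM factors, filterByExpr, 3 libraries per group, no pairing), with Benjamini-Hochberg adjustment, a threshold of 0.05 and a log2 fold change of at least 1. DESeq2 1.42.0, limma 3.58.1 (voom), 1 model over all 45 libraries and leaving out each library were alternatives. Reads counted as whole were within 0.01 of a whole number. Sorting effects in myoblasts and iMPCs were compared by an interaction term over 12 libraries. On simulated counts for the 14528 genes, with 200 changed 4-fold, the 6-library test called 73 of them and 4 others. Of 200 changed 16-fold it called 178, and 14 others. Simulated libraries were drawn independently around 1 mean per gene, with no library that departs for many genes together as bulk 3 does. These counts therefore check the procedure and do not give its power or error on the real libraries.

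The comparison and gene lists were chosen with earlier results of these data known. Named were, per list, up to 4 members of highest mean level among those called, or of all where fewer than 2 were called, the 12 genes with the largest changes in each direction, the 10 with the widest range in bulk, the 6 with the largest interaction, and the label checks. Since none was called, the 12 were taken by the rule given with the 84 genes. Some genes that this rule names are not reported here. Other genes, among them Casq1, Ampd1, Ckmt2, Hey1, Tfrc, Ephx1 and Ldha, were chosen after their values were seen.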

Additional observations from a re-analysis of the deposited data

Results flagged for a closer look

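The effect of sorting differed between myoblasts and iMPCs for 1679 of 15825 genes by the interaction term (edgeR), 869 with a more positive effect in myoblasts and 810 with a more negative one. Each value below is the log2 effect in myoblasts minus that in iMPCs, with edgeR adjusted p from 0.014 to 0.048. Among muscle genes it was 4.33 for Ttn, 3.74 for Mylk2, 2.44 for Eno3, 3.12 for Chrna1 and 3.85 for Chrng. Chrna1, a subunit of the acetylcholine receptor, had mean levels of 2274 and 1500.0 CPM in bulk and sorted myoblasts and of 666 and 50.6 CPM in bulk and sorted iMPCs.

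Other genes had a negative value. It was -2.02 for Pax7, -2.91 for Id1, -3.48 for Id3, -2.31 for Rrm2, -1.81 for Rrm1, -3.95 for Tnc and -1.74 for Tfrc. Id3 averaged 201 CPM in bulk and 65.9 CPM in sorted myoblasts, and 47.3 CPM in bulk and 173 CPM in sorted iMPCs.

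For the interferon genes Ifit3 and Ifih1 it was 5.17 and 3.62. For the mitochondrial genes mt-Co1, mt-Atp6, mt-Cytb and mt-Co2 it was 2.51, 1.96, 2.25 and 2.38. Of the genes higher in sorted myoblasts, it was 3.97 for Ddit3, 5.90 for Avil, 7.26 for Ctrb1, 2.48 for Car2 and 2.05 for Unc93b1. The largest values belonged to genes of few reads or shared sequence: 12.45 for Cxcl13, 10.00 for Gm42936, -15.65 for Gm49015, -11.63 for Rps27rt, 14.31 for Rspo4 and 11.23 for Ugt1a6b. Several of these have a group at 0, so the fitted size depends on the prior count.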

How the results depend on the processing

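The count of 0 genes called between sorted and bulk myoblasts became 2 without a filter (Gm14288 and Rps27rt), 3 with voom weights (those and Zfp935), 318 with DESeq2 (333 with no minimum fold), 1080 with all 45 libraries in edgeR and 1385 with them in DESeq2. Leaving out 1 library gave 0 to 45, the latter without bulk replicate 3, and 674, 1428 and 1092 (bulk 1 to 3) and 1297, 513 and 1078 (sorted 1 to 3) in the fit over 45 libraries; the cause was not tested. The count of 1679 for the difference from iMPCs became 3104 with DESeq2, 4172 over 45 libraries, 755 with whole counts only, and 4 to 2508 without 1 library. The count between day 10 and MEFs was 3279 over 45 libraries and 1344 at a minimum log2 fold change of 2. With the replicate block 0 genes were called between the myoblast groups and 1 (Rin1) for the difference from iMPCs. Deviations of same-numbered libraries correlated at -0.27, 0.0448 and -0.257. The labels do not link these libraries, and correlations from 3 libraries per group cannot settle whether they share a source. Median fold changes without 1 library ran from 0.017 to 0.51 for the Notch list (0.51 over 45 libraries without bulk 3) and from 1.35 to 2.00 for the interferon list (1.35 to 2.04 over 45 libraries). Acta1 changed direction without bulk 1 (0.95, and 0.95 over 45 libraries; range -1.62 to 0.95). Ttn, at -0.01, was at 0.34 and 0.36 without bulk 1 and 2, and at 0.32, 0.28 and -0.94 without sorted 1, 2 and 3 (over 45 libraries 0.34 and 0.39, 0.31 and 0.30 for bulk 1 and 2, sorted 1 and 2; 0.013 with DESeq2 over 45). Neither was called. Of 2468 values over 101 genes under the alternatives, 1834 kept direction and side of the threshold, 623 passed it and 11 reversed. Of 563 values for 29 genes that differed from iMPCs, 345 kept the call and 218 lost it. Depth limits genes near the value of 3 reads, 0.0847 to 0.185 CPM.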

Other observations

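In the lists not described above, no gene was called between sorted and bulk myoblasts by edgeR on the 6 libraries, where 1423 of all genes had an unadjusted p under 0.05. Genes of cholesterol synthesis had a median log2 fold change of 0.15 (8 of 22 negative), p53 targets -0.13 (9 of 17) and glycolysis and hypoxia genes -0.30 (12 of 23). TGF-beta targets and regulators summed to 5639, 3623 and 4059 CPM in bulk and to 2744, 2170 and 3327 CPM in sorted cells, wholly below bulk, with 14 of 19 negative. Collagen and matrix genes summed to 14620, 5371 and 8972 CPM in bulk and to 5386, 9067 and 2422 CPM in sorted cells, and overlapped. Schwann cell markers followed the muscle genes across libraries, at 205, 209 and 19.3 CPM in bulk and at 67.3, 96.3 and 284 CPM in sorted cells.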
